A study of Mus musculus with 24 samples.

Results

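Most of the genes described here encode nuclear-encoded subunits of respiratory complexes II to V, and 1 encodes the electron carrier cytochrome c. Entries that are not plain subunits are named below. The set was defined by symbol and was chosen with earlier results of these data known. It held the entries named Sdha, Sdhb, Sdhc or Sdhd, those beginning with Uqcr, Cox4, Cox5, Cox6, Cox7, Cox8 or Atp5, and Cyc1, Cycs and Usmg5. This gave 50 genes present in both sets of values, of 23845 genes listed for RNA and 20436 listed for ribosome-protected fragments (RPFs, or footprints). By symbol, 4 of the 50 were assigned to complex II, 9 to complex III, 1 was cytochrome c, and 18 were assigned to complex IV and 18 to complex V. Steady-state RNA was measured by RNA-seq and RPFs by ribosome profiling in hippocampal slices, with 12 libraries for each assay. The 4 groups of 3 libraries were wild-type (WT) littermates given vehicle, WT given DHPG, Tsc2+/- given vehicle and Tsc2+/- given DHPG. DHPG activates the group I metabotropic glutamate receptors (mGluR1 and mGluR5) and was applied at 100 µM for 5 min, and cycloheximide, which stalls ribosomes, was used in all groups. The Tsc2+/- mice carried a germline deletion of one Tsc2 copy made with CMV-Cre, so every cell type of the slice was heterozygous. All mice were male and aged 28 to 42 days, each library came from pooled slices of several animals, and CA3 had been cut off. Because the slices are bulk tissue, fewer cells of a type and less RNA per cell cannot be told apart.

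Complex II (succinate dehydrogenase) takes electrons from succinate, complex III passes electrons from ubiquinol to cytochrome c, complex IV hands them to oxygen, and complex V (ATP synthase) uses the resulting proton gradient to make ATP. The subunits studied here are translated in the cytosol and imported into mitochondria. Among complexes II to V, the subunits that mitochondria make for themselves belong to III, IV and V. Neurons draw most of their ATP from this system to pump ions and release transmitter. TSC2 restrains the kinase complex mTORC1, which is known to favour translation of several mRNAs for mitochondrial proteins. The 6 mitochondrially encoded subunits of complexes III to V were not analysed here.

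Of the 50 genes, 47 passed the filter on low counts in RNA, 44 in RPFs and 44 in the comparison of both (4 of complex II, 9 of complex III, cytochrome c, 12 of complex IV and 18 of complex V). The 6 that did not pass in RPFs were all complex IV isoforms. Cox4i2, Cox6b2 and Cox7a1 had at most 17, 12 and 7 RPF counts in a library. Cox7b2, Cox8b and Cox8c also failed in RNA, and Cox8c had 0 counts in every library. Some entries are not plain subunits: Cox7a2l is a factor of respiratory supercomplexes, and Atp5s and Atp5sl are today named for distal membrane-arm assembly (Dmac2l and Dmac2).

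RNA libraries held 14801679 to 24067838 counts and RPF libraries 5296006 to 13613673. In RPF libraries of replicates 2 and 3, 97.9% to 98.5% of the non-zero counts were even, against 48.2% to 49.0% in replicate 1. The counts of those 8 libraries may therefore have been doubled before deposit, and their depths and counts are given here as deposited. Tsc2 itself lay at 186 to 214 CPM (counts scaled to library size) in the 6 WT RNA libraries and at 128 to 137 CPM in the 6 Tsc2+/- RNA libraries, so the genotype labels held. Its RPFs lay at 123 to 146 CPM in WT and 76.5 to 84.5 CPM in Tsc2+/-. WT vehicle replicate 3 stood apart from the other RNA libraries, as described with the results it touches. CA1 markers were plentiful, at a summed RNA level of 1911 to 2105 CPM over 10 genes, and CA3 markers were still present at 777 to 882 CPM over 9 of 10 genes.

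Usmg5, also named Atp5md, encodes a small membrane-embedded subunit of ATP synthase and was the only gene of the 50 to pass the test used below in any comparison. It lies at chr19:47083471-47090647 on the minus strand. Its coding sequence in RefSeq (GRCm38.p6) is shown because it is short, and footprint changes differed with coding length over genes at large, as described below. The part of its own length in its values was not tested. Capitals mark the 117 nt, or 39 codons, over which footprints were counted once 30 nt had been left out at each end of the 177-nt coding sequence.
Usmg5 coding sequence: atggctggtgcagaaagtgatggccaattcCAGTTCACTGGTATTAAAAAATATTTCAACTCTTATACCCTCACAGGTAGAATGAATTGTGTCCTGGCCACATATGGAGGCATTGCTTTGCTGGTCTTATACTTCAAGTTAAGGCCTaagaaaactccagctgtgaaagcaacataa
Every 30-nt window of that counted stretch occurred at least once more in the genome, with up to 4 copies. The same held for Atp5g1, Atp5g2, Atp5l, Cox7c and Cycs, while 22 of the 50 genes had no such window. Among the remaining genes, the largest shares of windows with a copy were 88.3% in Uqcrb, 85.6% in Atp5h and 80.1% in Cox5b. They were followed by 69% in Cox6c, 63.8% in Atp5f1 and 63.6% in Cox7a2l. Only uniquely mapped reads had been counted, so the levels of genes with copies are uncertain, most of all where every window has one. The part of the copies in these levels was not tested.

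The levels of the members were first described in WT vehicle slices. Together the 50 genes took 0.638% ± 0.0564 (SD, n = 3) of RNA counts and 1.44% ± 0.0494 of RPF counts. Complex V made up 0.815% ± 0.0239 of RPF counts, complex IV 0.304% ± 0.0165, complex III 0.192% ± 0.00568, complex II 0.101% ± 0.00276 and cytochrome c 0.0316% ± 0.00268. Levels were then compared between genes per length, as RPKM (CPM per kilobase of length), using transcript length for RNA and the counted coding length for footprints. The median member lay at 107 RPKM for RNA and 649 RPKM for footprints, against 8.54 and 18.1 RPKM over 12710 genes. The ratio of footprint to RNA RPKM, here called footprints per RNA, had a median of 4.25 over the 44 members and 2.29 over every gene, and 37 of the 44 lay above the median of every gene. On the log2 scale the member median was 2.09, and without any length in the ratio, as a ratio of CPM, it was 1.17 against 0.0637 for every gene.

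**Figure D1:**
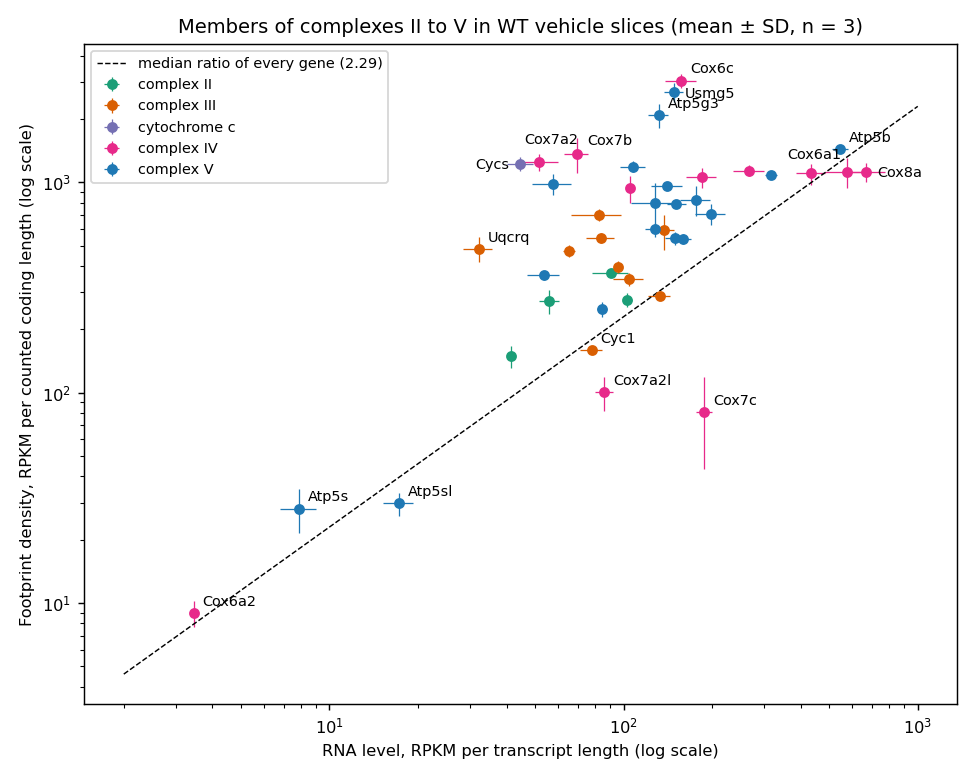
RNA level (RPKM per transcript length, x axis, log scale) against footprint density (RPKM per counted coding length, y axis, log scale) of the 44 members in WT vehicle slices, with points as means, bars as SD of 3 libraries, colour as complex and the dashed line as the median ratio of every gene, 2.29. Most members lie above the line, with Cycs, Cox7a2, Cox7b, Cox6c and Usmg5 farthest above it and Cox7c farthest below.

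In complex II, the median ratio was 3.83. Sdhb, the iron-sulfur subunit, had the highest footprint density at 371 RPKM ± 12.1 (SD, n = 3), and Sdhd, a membrane anchor, the lowest at 149 ± 17.7. Sdha, the flavoprotein that binds succinate, was highest in RNA at 103 RPKM ± 3.63 and had a ratio of 2.67. Sdhc, the other membrane anchor, lay at 272 RPKM ± 35.6 in footprints.

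In complex III, the median ratio was 4.25. Footprint density ran from 159 RPKM ± 3.32 for Cyc1, the cytochrome c1 subunit, to 701 ± 44.6 for Uqcrb, which helps to form the quinone site. Uqcr11, a small accessory subunit, came next at 590 ± 112, within 1 SD of Uqcrb by its own spread. RNA was highest for Uqcr11 at 137 RPKM ± 10.9 and for Uqcrc1, a core protein, at 133 ± 11.3, which did not differ beyond their spread, and was lowest for Uqcrq at 32.2 ± 3.62. The place of Uqcrq depends on the 1482.5-nt transcript length used for it. In CPM its RNA lay at 47.7 ± 5.36, beside 39.2 ± 4.26 for Uqcr10 and 45.1 ± 8.70 for Uqcrb. Uqcrfs1, the Rieske iron-sulfur protein, had 473 RPKM ± 29.7 in footprints and a ratio of 7.24.

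Cycs, which encodes cytochrome c itself, had the highest ratio of all members, 27.5. Its footprint density was 1223 RPKM ± 95.1 and its RNA only 44.6 RPKM ± 4.45. This ratio depends on the 3154-nt transcript length that RefSeq gives, since footprints exceeded RNA by 2.25 as a ratio of CPM.

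Complex IV spanned the widest range, with a median ratio of 3.31. Cox6c, a small accessory subunit, had the highest footprint density of all members at 3039 RPKM ± 231, and Cox7b was next in the complex at 1367 ± 263. RNA was highest for Cox8a at 668 RPKM ± 104 and Cox6a1 at 574 ± 91.1, whose spreads overlapped, and the footprint ratios of these genes were low at 1.68 and 1.96. Cox7a2 and Cox7b had ratios of 24.4 and 19.5. Cox7a2l had a ratio of 1.16. Cox7c stood lowest of all with a ratio of 0.397, and its footprints lay at 5.67, 10.8 and 15.6 CPM in the 3 WT vehicle libraries. Cox5a, a structural subunit on the matrix side, lay at 937 RPKM ± 137 in footprints.

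Several complex IV subunits have tissue-specific isoforms, and in each set 1 form dominated the RNA of WT vehicle slices. Cox6a1 lay at 574 RPKM ± 91.1 and Cox6a2, the heart and skeletal muscle form, at 3.45 ± 0.0674. Cox4i1, the general form of subunit IV, lay at 435 RPKM ± 48.6 and Cox4i2, known from lung and hypoxia, at 0.861 ± 0.113. Cox6b1 lay at 184 RPKM ± 21.9 and its testis form Cox6b2 at 1.2 ± 0.494. Cox7a2 lay at 51.5 RPKM ± 8.51 and its muscle form Cox7a1 at 0.934 ± 0.561. Cox7b lay at 69.3 RPKM ± 6.61 and Cox7b2 at 0.573 ± 0.492. Cox8a lay at 668 RPKM ± 104 and its muscle form Cox8b at 0.175 ± 0.171. In each of these pairs, every library had more of the first form than any library had of the second. Cox6a2 was the one minor isoform that passed the filter in footprints, at 8.95 RPKM ± 1.25, the lowest of the 44 members.

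In complex V, the median ratio was 4.65. Usmg5 had the highest footprint density at 2676 RPKM ± 277, followed by Atp5g3 at 2078 ± 271, and Atp5s the lowest at 28.1 ± 6.66. RNA was highest for Atp5b, the catalytic beta subunit, at 544 RPKM ± 33.9 and for Atp5a1, the alpha subunit, at 317 ± 14.8. Footprints of these subunits lay at 1438 ± 67.7 and 1085 ± 37.5, and those of Atp5c1, the gamma subunit of the central stalk, at 542 ± 39.4. Assembled ATP synthase holds alpha and beta in equal number. The ring-forming c subunit is made from Atp5g1, Atp5g2 and Atp5g3, whose mature proteins are identical. Their summed footprint density was 2923 RPKM ± 279 in WT vehicle and 3183 ± 94.8 after DHPG in WT, and in Tsc2+/- it was 3055 ± 161 with vehicle and 3119 ± 212 with DHPG, all within 1 SD of the WT vehicle mean. Atp5g3 gave 70.9% ± 3.17 of it in WT vehicle, Atp5g1 20.6% ± 2.65 and Atp5g2 8.52% ± 0.541. Atp5g1 and Atp5g2 are among the genes whose every window has genomic copies, and Atp5g3 has none.

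Promoters were examined for features shared by the members. RefSeq promoters were matched for 39 of the 50 genes, among 17492 protein-coding genes in all. The letters GCGCATGC, the core of the site bound by nuclear respiratory factor 1, were searched on both strands from 250 bases before to 50 bases after the start site. They were present in 8 of the 39 (20.5%) and in 3.47% of all promoters. The 8 were Atp5g2, Atp5k, Atp5l, Cox6a1, Cycs, Sdhb, Uqcr11 and Uqcrc1. A few of these are shown, with each gene's strand 5′ to 3′ and the match and any overlapping match in capitals.
Cycs promoter, chr6:50566610-50566639, minus strand: atgctagctcGCATGCGCgcgcacaaacct
Sdhb promoter, chr4:140961207-140961236, plus strand: agcccagtggGCATGCGCcctacgggccgc
Cox6a1 promoter, chr5:115349101-115349130, minus strand: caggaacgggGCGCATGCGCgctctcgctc
A start site followed by C and at least 4 further pyrimidines, the form of a 5′ terminal oligopyrimidine (TOP) mRNA, was present in 3 of 39 (7.69%) and in 2.20% of all. The first 20 bases of these 3 are shown because TOP mRNAs are known targets of mTORC1, with the opening pyrimidine run in capitals.
Atp5d 5′ end, chr10:80142315-80142334, plus strand: CCTTCggagaatcctgtgcg
Atp5g2 5′ end, chr15:102671028-102671047, minus strand: CCCTCTCTgtcttctctgcc
Uqcrfs1 5′ end, chr13:30545297-30545316, minus strand: CTCTTCgggccgtcgttcga
The median footprint change on DHPG in WT, described next, was 0.07 on the log2 scale for the 8 genes with the GCGCATGC match and 0.13 for the 27 without it that were tested. It was 0.04 for the 3 genes with a TOP-like start and 0.12 for the 32 without.

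The response to group I mGluR activation was asked by comparing DHPG with vehicle in WT slices. Of 44 members, 34 had a positive fitted difference in footprints, but 1, Usmg5, passed the test, and in RNA 10 of 47 were positive and 0 passed. The test called genes at an adjusted p under 0.1 (edgeR quasi-likelihood, Benjamini-Hochberg over all genes), and in footprints 0.0311% of 12877 genes were called. Usmg5 footprints lay at 280, 344 and 315 CPM in the 3 WT vehicle libraries and at 349, 387 and 401 CPM in WT DHPG. The lowest DHPG library lay above the highest vehicle library. Its rise was 0.28 in log2 units (SE 0.0550, adjusted p 0.0774), seen in 3 of 3 pairs of same-numbered libraries. This call was lost without replicate number in the model (adjusted p 0.977), with ComBat before DESeq2 (0.638), without replicate number 1, 2 or 3 (0.307, 0.360 and 0.380), without WT vehicle replicate 3 (0.151) and without WT DHPG replicate 1, 2 or 3 (0.868, 0.254 and 0.570). Its RNA lay at 52.0, 51.1 and 58.6 CPM in vehicle and 49.4, 59.1 and 49.2 CPM in DHPG, and these groups overlapped.

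Over all 44 members the median footprint change was 0.098 on the log2 scale, with 34 above 0, beside -0.0019 over every gene, of which 6379 of 12877 were above 0. At an unadjusted p under 0.05, 14 members were higher and 0 lower (3.79% and 2.92% of every gene). The medians by complex were 0.07 for II, 0.11 for III, 0.12 for IV and 0.09 for V, and the value of cytochrome c was 0.10. The 14 were Usmg5, Cox7b, Cox5b, Uqcr10, Atp5j2, Uqcrh, Atp5j, Atp5g3, Uqcrb, Cox8a, Atp5g1, Uqcrq, Atp5l and Cox7a2, all with coding sequences of at most 426 nt, and each was higher in 3 of 3 pairs. Except for Usmg5, they did not pass the adjustment. Cox7b, an accessory subunit of complex IV, lay at 197, 290 and 264 CPM in vehicle and 286, 323 and 294 CPM in DHPG, so the groups overlapped, and its fitted difference was 0.28 (SE 0.0649, adjusted p 0.195). Uqcrh, the hinge protein of complex III, lay at 72.8, 77.5 and 67.3 CPM in vehicle and 82.2, 88.2 and 83.9 CPM in DHPG. Its groups did not overlap, and its difference was 0.22 (SE 0.0788, adjusted p 0.588). Uqcr10, another small complex III subunit, lay at 69.8, 77.5 and 72.3 CPM against 84.7, 94.8 and 80.1, with a difference of 0.24 (SE 0.0803, adjusted p 0.534). Atp5j2, a subunit of the membrane part of ATP synthase, lay at 118, 192 and 182 CPM in vehicle and 173, 206 and 193 CPM in DHPG. Its groups overlapped, and it differed by 0.24 (SE 0.0782, adjusted p 0.537), with 0.55, 0.10 and 0.08 in pairs 1, 2 and 3. The members with negative differences and the smallest p were Uqcr11 at -0.11 and Uqcrfs1 at -0.04 (adjusted p 0.859 and 0.919).

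No core subunit, nor cytochrome c, passed the test in this comparison. Atp5a1 footprints lay at 1796, 1744 and 1676 CPM in WT vehicle and 1723, 1755 and 1717 CPM in WT DHPG, and the groups overlapped. Over all comparisons and readouts, fitted differences of Atp5a1 and Atp5b lay between -0.04 and 0.05 on the log2 scale. Sdha differed by 0.05 in footprints (adjusted p 0.867), Uqcrc1 by 0.07 (0.827), Cyc1 by 0.11 (0.780), Cox5a by 0.12 (0.746), Cycs by 0.10 (0.768), Sdhb by 0.08 (0.809) and Atp5c1 by 0.10 (0.750) on DHPG in WT.

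**Figure D2:**
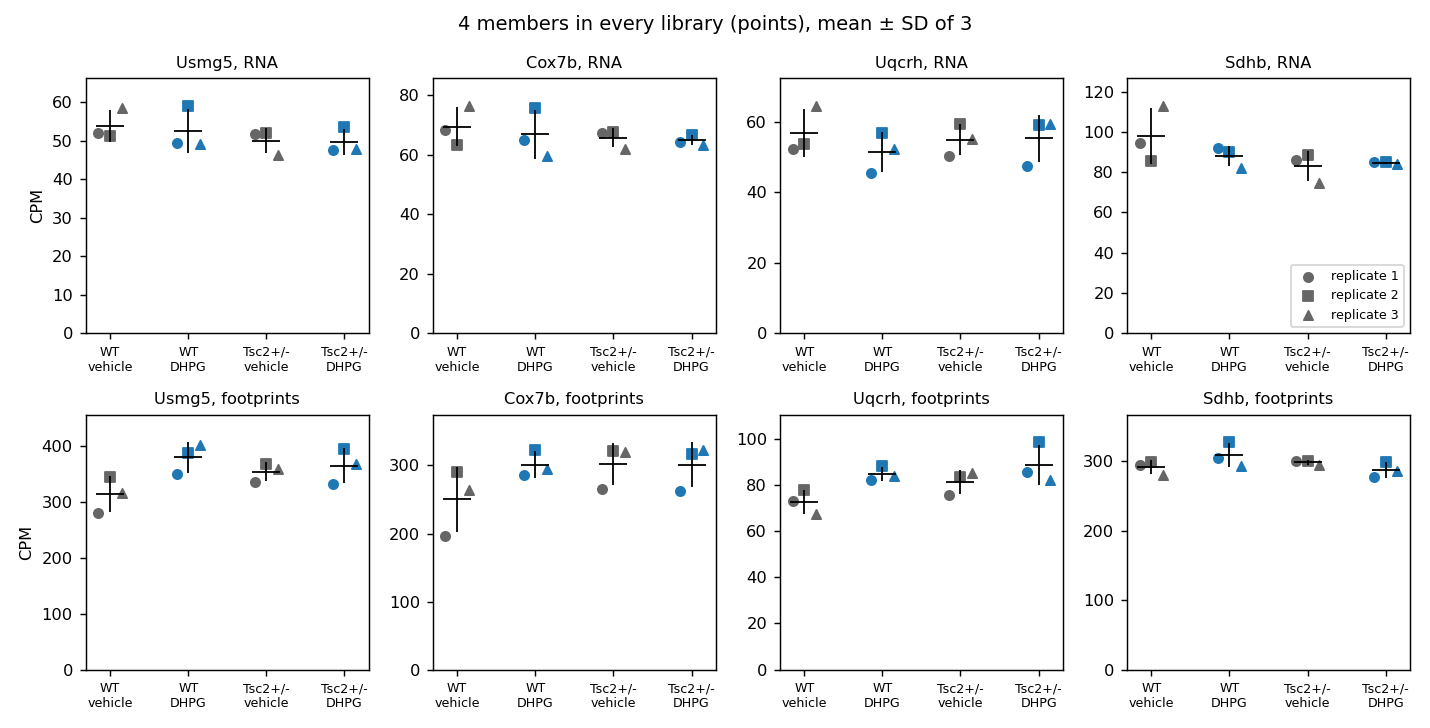
CPM (y axes, from 0) of Usmg5, Cox7b, Uqcrh and Sdhb in every library by group (x axes), for RNA above and footprints below, with the replicate number as the symbol and the horizontal and vertical lines as mean and SD of 3. Usmg5 and Uqcrh footprints of WT DHPG lie above those of WT vehicle, and replicate 3 has the highest RNA of the WT vehicle libraries for all 4 genes.

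In RNA, 0 of 47 members were called on DHPG in WT, as were 0% of 14516 genes. The median difference was -0.053, with 10 of 47 above 0, beside -0.0016 over every gene. At an unadjusted p under 0.05, 0 members were higher (3.7% of every gene) and 4 lower (2.75%). Atp5s had the smallest p among lower members (-0.34, SE 0.130, adjusted p 0.725), followed by Cycs (-0.16, SE 0.0611, adjusted p 0.725). Cycs RNA lay at 142, 126 and 154 CPM in vehicle and 127, 122 and 129 CPM in DHPG, which overlapped. On the higher side Atp5sl (0.10, adjusted p 0.907) and Cox7a1 (0.81, adjusted p 0.910, at no more than 14 counts in any library) had the smallest p.

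The change in footprints per RNA on DHPG in WT was tested over 12785 genes, of which 0.0548% were called. No member was called, and 16 were higher and 0 lower at an unadjusted p under 0.05 (4.4% and 4.66% of every gene). The median was 0.15, with 39 of 44 above 0, beside -0.0004 over every gene. By complex it was 0.17 for II, 0.11 for III, 0.17 for IV and 0.14 for V, and cytochrome c stood at 0.25. Usmg5 (0.32, SE 0.0940, adjusted p 0.234) and Uqcrh (0.36, SE 0.110, adjusted p 0.235) had the smallest p, and Uqcr11 (-0.13, adjusted p 0.795) and Atp5sl (-0.11, adjusted p 0.883) the smallest among negative values. For comparison, complex I subunits in the same fits had medians of 0.10 in footprints (37 tested), -0.07 in RNA (38 tested) and 0.17 in footprints per RNA. With the trend of each library in GC and transcript length removed, the member median of footprints per RNA was 0.018, with 25 of 44 above 0. Then 2 members were higher and 1 lower (2.68% of every gene in each direction). With coding length in place of transcript length, a choice made after seeing the data, the median was 0.069, with 34 above 0. Then 6 members were higher and 0 lower (2.22% and 3.25% of every gene).

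The median of the members in each same-numbered pair shows how much of this rested on single libraries. In footprints it was 0.08, 0.08 and 0.13 on the log2 scale in pairs 1, 2 and 3. In RNA it was -0.08, 0.12 and -0.25, and in footprints per RNA 0.19, -0.06 and 0.39. Footprints were higher in all 3 pairs, whereas RNA and footprints per RNA changed sign between pairs. The members took 0.703% of RNA counts in WT vehicle replicate 3 and 0.587% to 0.646% in the other 11 RNA libraries. That library also had the lowest astrocyte marker sum, 7535 CPM against 8655 to 9603 CPM in the other RNA libraries over 10 markers with none at 0, and the lowest microglia sum, 274 CPM. Its CA1 and CA3 sums, 1911 and 777 CPM, were also the lowest of the RNA libraries, and its interneuron sum, 1455 CPM, was the highest. In footprints its astrocyte sum was likewise the lowest, at 6800 CPM against 7445 to 8671 CPM, and its microglia sum, at 355 CPM. Its interneuron sum was the lowest there, at 2197 CPM, whereas its CA1 and CA3 sums were not. Their part in the result was not tested.

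Without WT vehicle replicate 3, the RNA median on DHPG in WT was 0.038, with 30 of 47 above 0. The median of footprints per RNA was 0.058, with 4 members higher and 3 lower at an unadjusted p under 0.05 (4.04% and 4.87% of every gene). The footprint median was then 0.077, with 10 higher and 1 lower (4.18% and 3.29% of every gene), and 0 called, among 7 genes in all. Without WT vehicle replicate 2, in contrast, 12 members were called in footprints per RNA, among 373 genes in all: Atp5c1, Cycs, Cox5b, Cox7b, Atp5j2, Cox5a, Uqcrh, Uqcrb, Sdhb, Atp5j, Usmg5 and Atp5g3. The RNA median was then -0.14. In footprints, Cox4i1 and Usmg5 were called without WT vehicle replicate 1, among 7 genes in all. Cox7b and Usmg5 were called without WT vehicle replicate 2, among 16 genes in all.

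**Figure D3:**
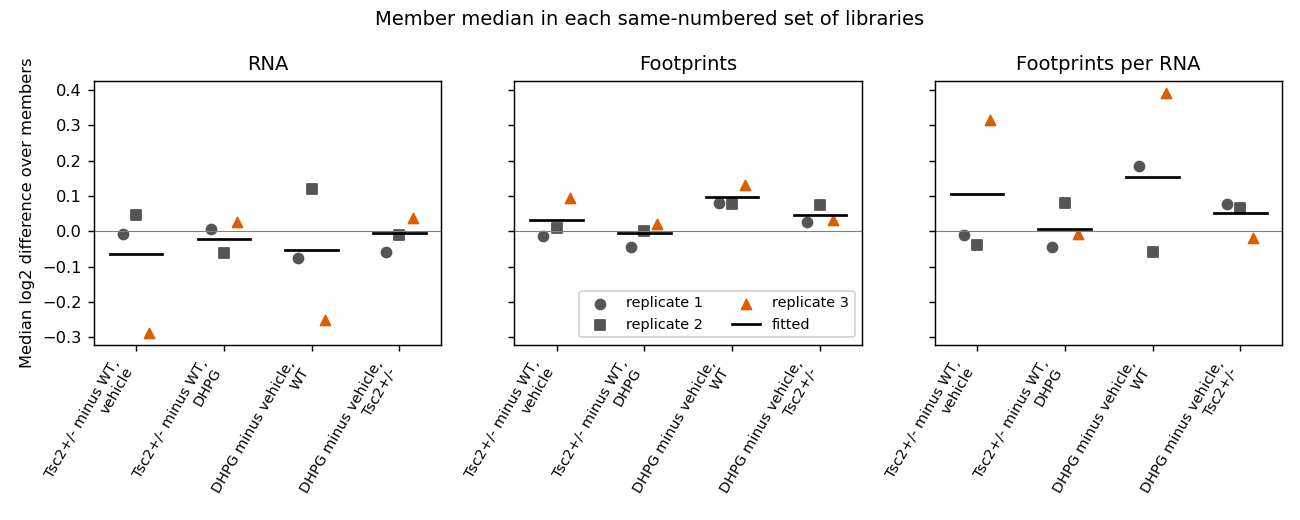
Median log2 difference over the members (y axes) within each set of same-numbered libraries for the 4 comparisons (x axes) in RNA, footprints and footprints per RNA, with horizontal bars as the median of fitted values. Replicate 3 gives -0.29 and -0.25 in the RNA comparisons that use WT vehicle, whereas the footprint values on DHPG in WT lie between 0.08 and 0.13.

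Coding length moved with these differences over genes at large. Among other genes, the median footprint change on DHPG in WT was 0.09 at coding lengths up to 300 nt, 0.06 up to 600 nt, 0.03 up to 1200 nt, -0.01 up to 2400 nt and -0.05 above that. In the shortest class 15.7% of other genes were higher at an unadjusted p under 0.05, and in the longest 0.321%. The members had medians of 0.13 (15 genes), 0.12 (16), 0.09 (8) and 0.05 (5) in the first 4 classes, above those of other genes in each. Footprints per RNA followed the same order, with 0.13, 0.10, 0.05, -0.01 and -0.09 among other genes and 0.21, 0.17, 0.17 and 0.06 among members. When the trend of each library with transcript length and GC was removed, the footprint median of members was 0.020. Then 1 member was higher and 2 lower (3.01% and 2.69% of every gene), and Usmg5 stood at 0.09 (adjusted p 0.859). With the trend in coding length removed instead, a choice made after seeing the data, the median was 0.049. Then 4 members were higher and 1 lower (2.96% and 3.08% of every gene), and Usmg5 stood at 0.14 (adjusted p 0.783).

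**Figure D4:**
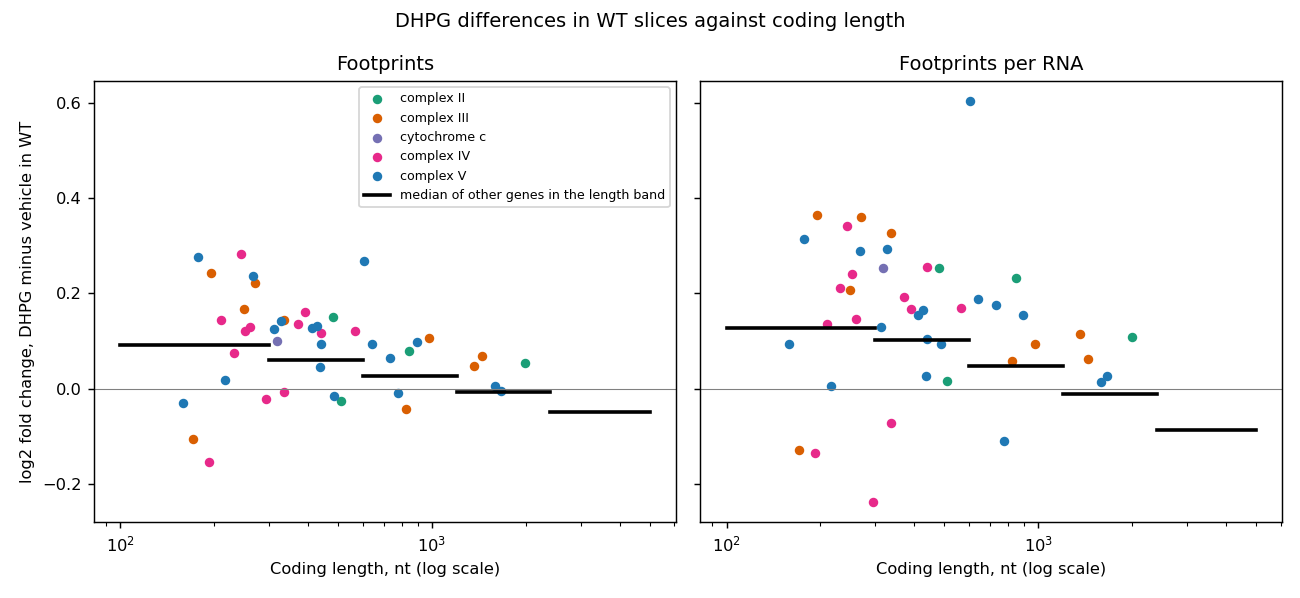
Fitted log2 change on DHPG in WT (y axes) of the 44 members against coding length (x axes, nt, log scale), for footprints on the left and footprints per RNA on the right, with colour as complex and black bars as the median of other genes in each length class. Those medians step down from 0.09 to -0.05 in footprints and from 0.13 to -0.09 in footprints per RNA.

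The same question was put to Tsc2+/- slices. In footprints 0 of 44 members were called (0% of every gene), with a median of 0.045 and 33 above 0. At an unadjusted p under 0.05, 2 members were higher and 0 lower, against 2.15% and 1.88% of every gene. They were Atp5g1 (0.16, SE 0.0613) and Cox8a (0.17, SE 0.0674), both with an adjusted p of 0.9999 and higher in 3 of 3 pairs. Usmg5 lay at 334, 367 and 359 CPM in Tsc2+/- vehicle and 332, 394 and 367 CPM in Tsc2+/- DHPG, and these groups overlapped. Atp5s and Sdhb had the smallest p among lower values (-0.15 and -0.05). In RNA 0 of 47 were called (0%), the median was -0.0032 with 23 above 0, and 0 members were higher and 2 lower at an unadjusted p under 0.05 (2.16% in each direction over every gene). Sdhc (-0.17) and Cycs (-0.14) were lower in 3 of 3 pairs, Cox6b1 (0.15) was higher in 3 of 3 and Uqcr11 (0.12) in 2 of 3. In footprints per RNA 0 of 44 were called (0%), the median was 0.052 with 34 above 0, and 4 were higher and 0 lower (1.89% and 1.77%), with Cycs (0.22) and Atp5g1 (0.22) first and Sdhb (-0.09) and Cox6a1 (-0.10) on the other side. Leaving out a library or a replicate number moved the footprint median between 0.024, without replicate number 2, and 0.069, without Tsc2+/- vehicle replicate 3. The median of footprints per RNA moved between 0.0037, without Tsc2+/- vehicle replicate 1, and 0.098, without Tsc2+/- vehicle replicate 3.

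Slices of both genotypes given vehicle were compared to ask what loss of a Tsc2 copy does without stimulation. This comparison uses the same WT vehicle libraries as that of DHPG in WT, so their values are given side by side only. No member was called in RNA, footprints or footprints per RNA, where 0.0896%, 0.0233% and 0% of every gene were called. In RNA the median was -0.062, with 6 of 47 above 0, and 0 members were higher and 3 lower at an unadjusted p under 0.05 (2.6% and 2.3% of every gene). Sdhb RNA lay at 94.7, 85.8 and 113 CPM in WT and 86.0, 88.4 and 74.6 CPM in Tsc2+/-. The groups overlapped, and the difference was -0.24 (SE 0.0834, adjusted p 0.921). It passed the test without WT vehicle replicate 2, where 32 genes were called in all. Atp5j, a peripheral stalk subunit, differed by -0.15, and Cox6a2 (0.50) and Sdhc (0.07) were the first on the higher side. The pair medians were -0.01, 0.05 and -0.29, and without WT vehicle replicate 3 the fitted median was 0.021, with 28 of 47 above 0.

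In footprints the median of Tsc2+/- minus WT in vehicle was 0.031, with 29 of 44 above 0, and 6 members were higher and 1 lower at an unadjusted p under 0.05 (3.38% and 3.17% of every gene). Cox7b lay at 197, 290 and 264 CPM in WT and 266, 321 and 319 CPM in Tsc2+/-, with overlapping groups and a difference of 0.28 (SE 0.0651, adjusted p 0.232). Usmg5 lay at 280, 344 and 315 CPM in WT and 334, 367 and 359 CPM in Tsc2+/-, also overlapping, with a difference of 0.18 (SE 0.0553, adjusted p 0.550). Both were higher in 3 of 3 pairs. Cox7c was the lower one, at 5.67, 10.8 and 15.6 CPM in WT and 5.30, 9.28 and 5.89 CPM in Tsc2+/- (-0.60, SE 0.237, adjusted p 0.667), and Uqcr11 (-0.17) came next. In footprints per RNA the median was 0.11, with 35 of 44 above 0, and 7 were higher and 2 lower (2.71% and 3.06%). Cox7b (0.37, adjusted p 0.757) and Atp5j (0.29, adjusted p 0.778) led the higher values and Cox6a2 (-0.95) and Cox7c (-0.53) the lower ones. The pair medians were -0.01, -0.04 and 0.32, and without WT vehicle replicate 3 the fitted median was -0.010. Without WT vehicle replicate 2, Cox7b, Atp5j and Usmg5 were called, among 73 genes in all. With the trend in GC and transcript length removed, the medians of this comparison turned direction, to 0.0038 in RNA (24 of 47 above 0), -0.0093 in footprints (21 of 44) and -0.0081 in footprints per RNA (20 of 44). In footprints per RNA, 2 members were then higher and 4 lower (1.85% and 2.73% of every gene). With the trend in GC and coding length removed, the medians were -0.029, 0.015 and 0.056.

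Slices of both genotypes given DHPG were compared last. No member was called in RNA, footprints or footprints per RNA (0.0482%, 0.0155% and 0% of every gene). The medians were -0.023 (18 of 47 above 0), -0.0035 (21 of 44) and 0.0061 (22 of 44). At an unadjusted p under 0.05, 0 members were higher and 1 lower in RNA (2.28% and 2.36% of every gene). It was Cox7a1 (-2.03, SE 0.828, adjusted p 0.996), a muscle isoform with 0 to 14 counts in a library. In footprints 0 were higher and 0 lower (2.08% and 2.05%), and in footprints per RNA likewise (1.5% and 1.53%). The smallest p belonged in RNA to Cox6a2 (0.44), Cox6b1 (0.12) and Uqcrfs1 (-0.08) beside Cox7a1, in footprints to Atp5k (0.15), Cycs (0.06), Sdhb (-0.10) and Uqcr10 (-0.13), and in footprints per RNA to Atp5k (0.22), Sdhc (0.13), Atp5s (-0.28) and Uqcr10 (-0.16).

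**Figure D5:**
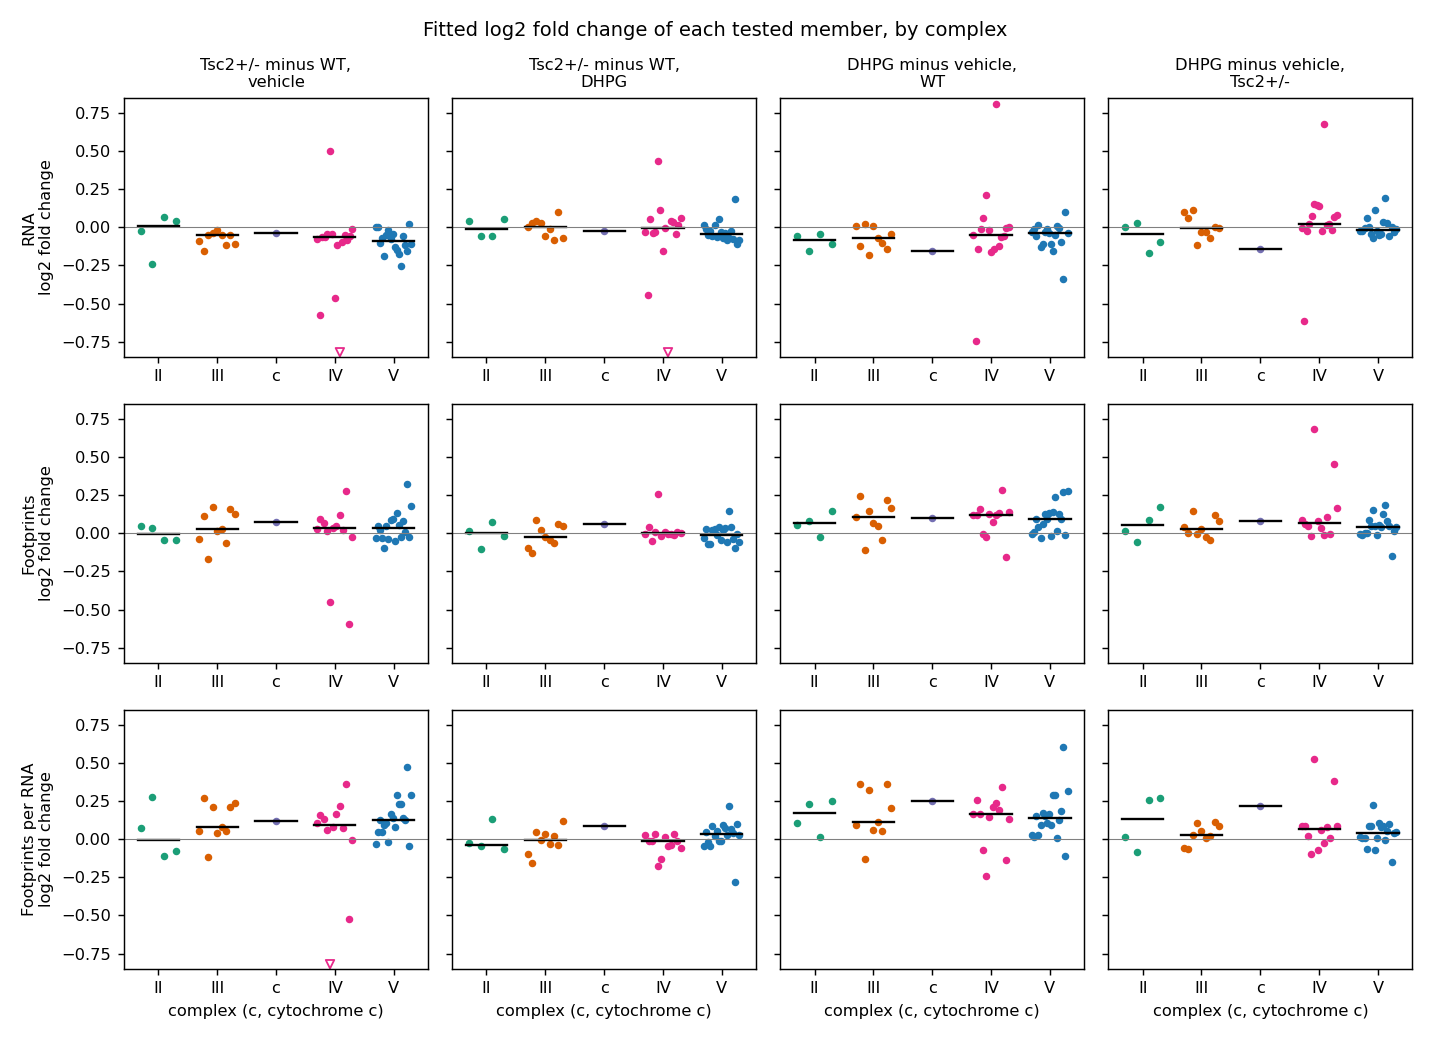
Fitted log2 fold change (y axes) of each tested member by complex (x axes) for the 4 comparisons (columns) in RNA, footprints and footprints per RNA (rows), with black bars as the complex median and open triangles as values below the axis. On DHPG in WT, the complex medians of footprints lie between 0.07 and 0.12.

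Whether DHPG acted differently in the genotypes was tested as the interaction, the DHPG effect in Tsc2+/- minus that in WT. It called 0 members in RNA, footprints and footprints per RNA, and 0% of every gene in each. The medians were 0.060, -0.042 and -0.093. Those of RNA and of footprints per RNA turned direction without replicate number 3, to -0.065 and 0.035, and without WT vehicle replicate 3, to -0.0225 and 0.0198. Without replicate number 2 they were 0.16 and -0.26. Usmg5 stood at -0.24 in footprints (SE 0.0778, adjusted p 0.998) and Cox7b at -0.29 (SE 0.0915, adjusted p 0.998), so that a difference between genotypes in their DHPG response was not shown.

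The genes that build and regulate these complexes were tested in the same fits, and 0 were called in any comparison or readout. The lists held 3 tested assembly factors of complex II, 6 of complex III, 22 of complex IV in RNA and 21 in footprints, 4 of complex V, and 13 regulators of mitochondrial biogenesis. On DHPG in WT their median footprint changes were 0.15, 0.09, 0.10, 0.11 and 0.02 in that order. The summed footprints of complex IV assembly factors lay at 561 to 601 CPM in WT vehicle and 603 to 615 CPM in WT DHPG and did not overlap. The summed RNA of complex II assembly factors lay at 40.5 to 43.6 CPM in Tsc2+/- DHPG, below the 44.1 to 48.5 CPM of WT DHPG. The summed ranges of these lists overlapped in every other comparison of RNA or footprints. Separations between groups of 3 libraries can arise by chance alone, and these sums were not tested.

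Markers of other cell types were measured beside these results. No marker of oligodendrocytes, astrocytes, microglia, endothelium and mural cells, choroid plexus, dentate granule cells, CA1 or CA3 pyramidal cells, interneurons or muscle was called in any of the 4 comparisons, and 1 blood gene was called in RNA between genotypes under DHPG. Summed choroid plexus footprints lay at 22.3 to 23.6 CPM in WT vehicle and 16.1 to 22.04 CPM in WT DHPG over 10 markers, 1 of them at 0 throughout. Summed blood RNA lay at 20.9 to 26.8 CPM in WT vehicle and 2.59 to 16.5 CPM in Tsc2+/- vehicle over 4 markers. Their summed footprints, too few to be tested, lay at 0 to 0.247 CPM in Tsc2+/- DHPG and 0.253 to 1.53 CPM in WT DHPG. Summed dentate granule RNA lay at 86.9 to 93.4 CPM in Tsc2+/- DHPG, below the 114 to 121 CPM of WT DHPG and the 93.5 to 111 CPM of Tsc2+/- vehicle. Their footprints lay at 92.4 to 108.0 CPM in Tsc2+/- DHPG, below the 115 to 124 CPM of WT DHPG and the 108.2 to 124 CPM of Tsc2+/- vehicle. Summed CA1 RNA lay at 2037 to 2054 CPM in Tsc2+/- DHPG and 2002 to 2009 CPM in WT DHPG. Muscle markers summed to 26.6 to 32.2 CPM of RNA. In every other comparison of these marker lists, in RNA or footprints, the summed ranges of the groups overlapped. With 3 libraries in a group, ranges can stand apart by chance alone. The part of these cell types in the results was not tested.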

How the data were processed

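The 24 libraries, RNA-seq or ribosome profiling of pooled hippocampal slices, fell into 8 groups of 3 from the labels, with 0 columns lacking a sample. The authors trimmed reads with Cutadapt and Trimmomatic, removed rRNA and tRNA reads with bowtie2, mapped to mm10 with TopHat2, and kept uniquely mapped reads after removing duplicates by molecular identifiers. Deposited were RSEM expected counts, which the authors had rounded, over whole transcripts for RNA and over RefSeq coding sequences less 30 nt at each end for RPFs. ComBat and DESeq2, used by the study afterwards, were run only as alternatives.

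Genes were filtered with filterByExpr (minimum count 10) and scaled by TMM, and each assay was tested in R 4.3.3 with the robust quasi-likelihood F test of edgeR 4.0.16 on 12 libraries, fitting group plus replicate number. The study corrected for batch, and the labels do not say whether its batches are the replicate numbers. Footprints per RNA were tested over 24 libraries as an assay-by-group interaction, in place of anota2seq. The paper describes taking RNA and footprints from parts of one lysate, and this model did not pair them. As an alternative, lysate was fitted as a fixed block. Usmg5 in footprints per RNA on DHPG in WT then stood at 0.3123 (adjusted p 0.307, same edgeR test). Tests were two-sided, Benjamini-Hochberg adjustment ran over every gene tested, and an adjusted p under 0.1 was called. Nothing in the labels ties a library to particular mice beyond pooling, so p-values measure the spread between pools. Lengths, coordinates and sequences came from RefSeq on GRCm38.p6, the same build as mm10. The lengths used for RPKM were medians over the RefSeq transcripts of a gene. Alternatives used DESeq2 1.42.0 and sva 3.50.0. The scripts were tested on simulated counts with known changes.

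Named were members called anywhere, those highest and lowest per length in each complex, the 2 with the smallest p in each direction of each comparison and readout, isoforms of one subunit, core subunits and Tsc2. The members and gene lists were chosen with earlier results of these data known.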

Additional observations from a re-analysis of the deposited data

How the results depend on the processing

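For footprints on DHPG in WT, the number of members called, 1 as reported, was 0 without the replicate block, with ComBat then DESeq2, at an adjusted p under 0.05 and with either GC and length trend removed, and 2 with DESeq2, with no filter on low counts, with only the 2 groups compared and with RPF counts of replicates 2 and 3 halved. Leaving out a replicate number or a library gave 0 to 2. For the other results the replicate block changed no call. The footprint median, 0.098, was 0.0204 with the transcript length trend removed and 0.0492 with the coding length trend removed, the latter chosen after seeing the data, and the interaction median in footprints was 0.0089 with the former, which also turned Usmg5 in footprints per RNA on DHPG in WT to -0.0041 (adjusted p 0.998). For footprints between genotypes in vehicle, 1 member was called with DESeq2 and with no filter. For footprints per RNA on DHPG in WT, 3 were called with DESeq2 and 0 to 12 when leaving out replicates. Leaving out replicates also gave 0 to 3 calls for footprints per RNA and 0 to 1 for RNA between genotypes in vehicle. The highest of these counts, 12, 3 and 1, came without WT vehicle replicate 2, where 373, 73 and 32 genes were called in all. Under DHPG the genotype medians ran from -0.0573 to 0.0357 in RNA and from -0.0648 to 0.0387 in footprints per RNA, the extremes 0.0357 and -0.0648 without WT DHPG replicate 2. The RNA median on DHPG in Tsc2+/- ran from -0.0519, without Tsc2+/- vehicle replicate 3, to 0.0291. The log2 ratio of footprints to RNA in WT vehicle was 1.17 as a ratio of CPM and 2.27 with an effective coding length. Beyond the construction of each alternative, the cause was not tested. Deviations of same-numbered libraries from their group means correlated at 0.0228 to 0.143 in RNA and 0.0330 to 0.263 in footprints. Those of differently numbered ones correlated at -0.126 to 0.0240 and -0.194 to 0.0667. Same-numbered libraries thus varied together weakly, though the ranges overlapped in both assays. Whether the numbers mark shared animals or a shared preparation was not tested. Replicate number only stands in here for the batch that the study corrected, which the labels do not state. For the single genes followed through the alternatives, 354 values kept their direction and side of the threshold, 15 passed it newly, 11 no longer passed it and 1, given above, reversed.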
